A study of Caenorhabditis elegans with 36 samples.

Results

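The HRDE-1 cargo of *simr-1 mut-2* animals was compared with that of *mut-2* animals. The comparison rests on 6 of the 36 small RNA libraries of the study, 3 HRDE-1 immunoprecipitations (IPs) from *simr-1 mut-2* and 3 from *mut-2*, chosen by the genotype and fraction in their labels. The *simr-1 mut-2* strain carried *simr-1(cmp36)* and *mut-2(cmp306)*, and the *mut-2* strain carried *mut-2(ne298)*. Both also carried *hrde-1(tor125[GFP::3xFLAG::hrde-1])*, a tagged copy of the gene at its own locus. The *mut-2* alleles of the strains thus differ, and the effect of the allele cannot be told apart from that of *simr-1*. About 100000 whole 1-day-old adults, collected 68 h after hatching at 20 °C, went into each of the 3 biological replicates of a strain. The input is a small RNA library of the same lysate before the IP, and inputs of both strains are given beside the IPs. IPs of wild-type, *hrde-2*, *simr-1* and *mut-2; hrde-2* animals, which have the same tag, were used to define gene classes and as points of comparison. In *mut-2; hrde-2* the alleles are *mut-2(ne298)* and *hrde-2(qe20)*. The question is how SIMR-1 shapes the cargo of HRDE-1 when Mutator-made small RNAs are scarce.

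HRDE-1 is an Argonaute of the germ line that enters the nucleus with a bound small RNA and silences transcripts complementary to it. Its usual guides are secondary small RNAs of the WAGO class, which RNA-dependent RNA polymerases make with the help of the Mutator complex. MUT-2 is a nucleotidyltransferase of this pathway and adds the tails that mark an RNA as a template. Another class of secondary small RNAs, made by the polymerase EGO-1, is bound by the Argonaute CSR-1 and maps to genes expressed in the germ line. SIMR-1 is a Tudor domain protein found in perinuclear foci and acts downstream of piRNAs. In whole animals, fewer germ cells and less small RNA per cell cannot be told apart. Each value below counts small RNAs that map to the exons of a gene on either strand and is not a level of its mRNA.

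The *simr-1 mut-2* IPs held 14345905, 17184568 and 16730231 counts on genes, and the *mut-2* IPs 13793566, 12273669 and 15847873. The inputs were shallower, with 4276687 to 6914020 counts in *simr-1 mut-2* and 6094760 to 8138218 in *mut-2*. Levels are given as RPM, the count on a gene per 1000000 counts on genes in the library. All replicate pairs differed by more than sampling noise, with a chi-square per gene of 18.8 and 23.7 between *simr-1 mut-2* IP replicate 1 and the others of its group, against 5.82 between those others and 3.50 to 6.54 among the *mut-2* IPs. Replicate 1 of the *simr-1 mut-2* IP therefore stood apart from replicates 2 and 3. The count tables list 1 microRNA gene and 0 piRNA genes, so that germline and somatic microRNA markers could not be measured.

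Small RNAs on the mutated genes were examined first. Those on *simr-1* (WBGene00015504, chromosome I, 5981778 to 5985869, WS258) were at 25.8, 21.4 and 20.1 RPM in the *simr-1 mut-2* IPs, against 489, 483 and 491 RPM in the *mut-2* IPs. The groups lie far apart, and the difference was -4.79 on the log2 scale (standard error 0.12), with an edgeR quasi-likelihood p of 3.2e-09 after Benjamini-Hochberg adjustment, as for every adjusted p below. The inputs showed the same order, with 32.98, 27.2 and 25.02 RPM in *simr-1 mut-2* and 236, 256 and 296 RPM in *mut-2*. Small RNAs on *mut-2*, whose exons overlap another gene, were at 63.3, 78.9 and 75.8 RPM in the *simr-1 mut-2* IPs and at 49.4, 44.2 and 46.6 RPM in the *mut-2* IPs. This difference of 0.29 on the log2 scale (edgeR adjusted p = 0.023) stayed under the 2-fold limit for a call. The tagged gene *hrde-1* had 1272, 1269 and 1268 RPM in the *simr-1 mut-2* IPs and 954, 958 and 962 RPM in the *mut-2* IPs, a log2 fold change of 0.06 once the libraries were scaled by TMM.

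The genes that HRDE-1 normally targets took a smaller share of the cargo in *simr-1 mut-2*. Target genes of wild-type, 2508 in number, were defined from wild-type libraries alone as enriched 2-fold or more in the IP relative to the input at an adjusted p of up to 0.05, with a mean IP level of 10 RPM or more. They took 5.62, 5.87 and 5.47% of the counts in the *simr-1 mut-2* IPs, against 21.1, 20.7 and 21.4% in the *mut-2* IPs. Every *simr-1 mut-2* library was below every *mut-2* library, with means of 5.65 and 21.1% and a difference of -15.4 percentage points (standard error 0.234). In the inputs their share was 3.43, 3.91 and 3.95% in *simr-1 mut-2* and 5.25, 5.47 and 5.13% in *mut-2*. Within a lysate the ratio of the IP share to the input share was 1.64, 1.502 and 1.39 in *simr-1 mut-2* and 4.02, 3.79 and 4.17 in *mut-2*. The share was thus larger in the IP than in the input in both strains, by a smaller factor in *simr-1 mut-2*. A larger share is not by itself an enrichment of these genes over others. In *simr-1 mut-2*, rRNA took a mean of 14.7% of the inputs and 1.74% of the IPs, which leaves more room for other genes. The target genes of *hrde-2*, defined below, had mean ratios of 1.46 in *simr-1 mut-2* and 1.34 in *mut-2*. Those of wild-type had 1.51 and 3.99.

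Genes that HRDE-1 binds in the *hrde-2* mutant showed the opposite difference. Shares are parts of a whole library, so a higher share in a class goes with lower shares elsewhere. They do not show whether more small RNA was bound. These 3401 target genes of *hrde-2* were defined from *hrde-2* libraries in the same way, and 132 of them were also targets in wild-type. They took 79.2, 76.9 and 76.9% of the counts in the *simr-1 mut-2* IPs and 53.7, 55.1 and 54.5% in the *mut-2* IPs, a difference of 23.3 percentage points (standard error 0.866). Their input shares were 48.7, 55.2 and 56.3% in *simr-1 mut-2* and 38.7, 40.8 and 42.9% in *mut-2*. The share was thus higher in *simr-1 mut-2* in the lysate as well, where rRNA took a mean of 14.7%, against 25.5% in *mut-2*. With the inputs scaled by TMM, the median log2 fold change of the class was 0.06. Of its 3401 genes 5 were called higher and 13 lower in the input. The ratio of IP to input in one lysate was 1.63, 1.40 and 1.37 in *simr-1 mut-2* and 1.39, 1.35 and 1.27 in *mut-2*. Those ratios overlap between the strains. Among 12 classes, the target classes and the biotypes, 11 had no overlap between the groups, and for each of them the exact permutation test gave p = 0.1 (two-sided), the smallest that 3 against 3 libraries allow, and 0.109 after Benjamini-Hochberg adjustment. The exception was rRNA, with means of 1.74 and 1.87% (p = 0.8, exact permutation test). The 10 most abundant genes took 3.82, 3.67 and 3.69% of the *simr-1 mut-2* IPs and 7.77, 7.55 and 7.57% of the *mut-2* IPs. The number of genes at 10 RPM or more was 5957, 6010 and 6260 in *simr-1 mut-2* IPs and 6347, 6333 and 6326 in *mut-2* IPs.

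**Figure D1:**
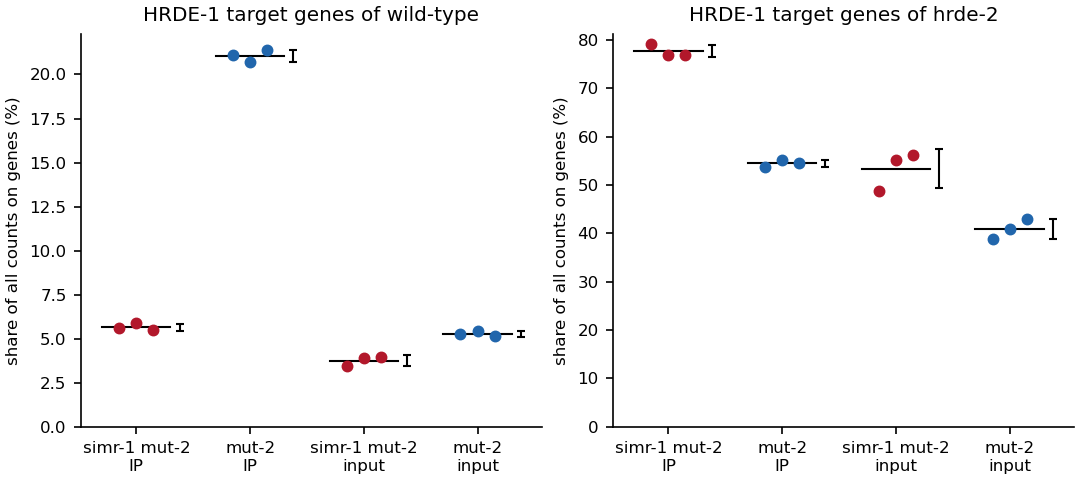
Share of all counts on genes (%) in each library, for target genes of wild-type (left) and of *hrde-2* (right). Points are libraries, horizontal lines are means and bars are standard deviations (n = 3). Target genes of wild-type averaged 5.65% in *simr-1 mut-2* IPs and 21.1% in *mut-2* IPs, and target genes of *hrde-2* averaged 77.7% and 54.4%.

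Gene by gene, losses outnumbered gains. A gene was tested where 3 or more of the 6 libraries held 10 or more counts. Of 12016 such genes, 2917 (24.3%) were lower in *simr-1 mut-2* IPs, by 2-fold or more at an adjusted p of up to 0.05, and 604 (5.03%) were higher. Among the lower genes 1665 differed by at least 4-fold and 461 by at least 16-fold, while 16 of the higher genes reached 4-fold and 0 reached 16-fold. The libraries were scaled by TMM, which put the median change over all genes at -0.01 on the log2 scale. Scaled by library size, as RPM are, the median was 0.34 (a shift of 0.348), with 2376 genes lower and 1233 higher, so that lower genes made up 82.8% of the calls with TMM and 65.8% with library size. Without *simr-1 mut-2* IP replicate 1 there were 3019 lower and 760 higher genes. The count of higher genes fell to 262 without *simr-1 mut-2* IP replicate 3, and to 398 and 337 without *mut-2* IP replicates 1 and 3.

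Target genes of wild-type made up 1449 of the 2917 lower genes, and 1138 of the lower genes reached 10 RPM. Of the 2508 target genes of wild-type, 2235 were tested, of which 1449 were lower and 13 were higher, with a median log2 fold change of -1.79 against -0.01 for all genes. Without *mut-2* IP replicates 1, 2 and 3 in turn, 1182 of 1972, 1191 of 1975 and 1178 of 1970 were lower (medians -1.576, -1.565 and -1.558). Without a *simr-1 mut-2* IP, 2225 to 2229 were tested. Part of the 1449 falls were thus in genes that passed the count minimum through the *mut-2* IPs, where they were high. All 3401 target genes of *hrde-2* were tested, and 17 were lower and 9 higher (median 0.19). With scaling by library size these were 12 lower and 59 higher (median 0.54), and without *simr-1 mut-2* IP replicate 1 they were 34 lower and 15 higher. Genes in neither class, 6512 tested, held 1455 lower and 584 higher genes, so nearly all genes called higher lay outside both target classes. That is a statement about 2-fold calls and not about cargo. The *hrde-2* class took 54.4% of the *mut-2* IPs, so its share could not rise 2-fold, and it gained 23.3 percentage points. Target genes also had to reach 10 RPM in the IP that defined them, and 165 of the 604 higher genes reached 10 RPM. A gene could pass the count minimum through the libraries of either strain.

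Sorted by how strongly a gene was enriched in the wild-type IP, the median change was 0.22 in the bin from -2 to -1 and lower in each further bin up to that from 2 to 3. Genes with a wild-type log2 ratio of IP to input between -1 and 0 had a median change of 0.17, with 92 of 2915 lower. Between 0 and 1 the median was -0.22 (519 of 2157 lower), between 1 and 2 it was -1.25 (1338 of 2449) and between 2 and 3 it was -2.38 (371 of 485). Above 3 only 7 genes were tested, with a median of -2.02 and 4 lower. Genes depleted from the wild-type IP below a log2 ratio of -2 also had a negative median, -0.63, with 382 of 1100 lower. Sorted by the ratio in *hrde-2*, the order was reversed, with medians of -1.38 below -2 (1475 of 2471 lower), 0.07 between 0 and 1, 0.19 between 1 and 2 and 0.23 between 2 and 3 (10 of 499 lower), and with 0 of 10 genes lower above 3 (median 0.46).

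**Figure D2:**
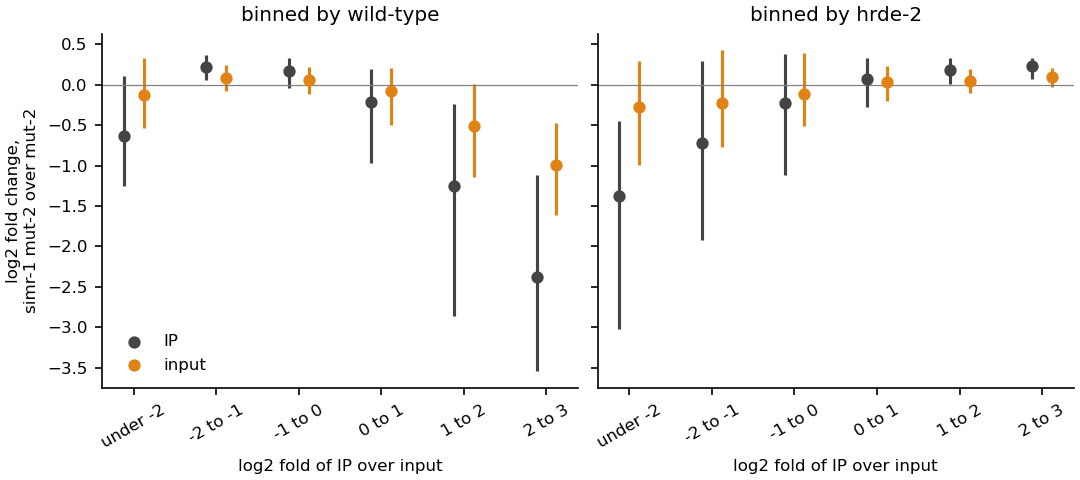
Median (points) and quartiles (lines) of the log2 fold change, *simr-1 mut-2* over *mut-2*, in IP and input, for genes binned by the log2 ratio of IP to input in wild-type (left) or *hrde-2* (right). In the bin from 2 to 3, the highest one plotted, the IP median was -2.38 for wild-type and 0.23 for *hrde-2*.

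Among genes at 10 RPM or more that share no exon with another gene, the 6 deepest falls were in T02C1.1, K08E7.10, F28B4.1, C44C10.10, F21D9.6 and C44C10.5, all of them target genes of wild-type. The most abundant, K08E7.10 (WBGene00044907, chromosome IV, 12561367 to 12563543), had 31.2, 32.3 and 27.9 RPM in the *simr-1 mut-2* IPs and 4042, 3756 and 4292 RPM in the *mut-2* IPs. Its groups lay far apart, at -7.39 on the log2 scale (standard error 0.15, edgeR adjusted p = 1.9e-09), and its inputs had 21.4, 24.7 and 28.3 RPM in *simr-1 mut-2* and 417, 424 and 415 RPM in *mut-2*. T02C1.1 (WBGene00011365, chromosome III, 9247422 to 9248618) showed the deepest fall, with 1.19, 0.756 and 1.02 RPM in the *simr-1 mut-2* IPs against 175, 159 and 155 RPM in the *mut-2* IPs (log2 fold change -7.72, standard error 0.13). C44C10.10 and C44C10.5 are neighbours on chromosome X. C44C10.5 had 6.62, 9.72 and 4.90 RPM in the *simr-1 mut-2* IPs and 704, 614 and 686 RPM in the *mut-2* IPs. For all 6 the input was lower too, with log2 fold changes between -5.47 (C44C10.5) and -3.52 (C44C10.10).

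Among genes with a three-letter name the deepest falls were in *nhr-228*, *ceh-82*, *unc-10*, *lag-2*, *npr-11* and *dot-1.5*, which encode receptors, transcription factors, a signal, a synaptic protein and a chromatin enzyme. Small RNAs on *nhr-228*, a nuclear hormone receptor, were at 5.16, 8.61 and 5.62 RPM in the *simr-1 mut-2* IPs and at 406, 367 and 434 RPM in the *mut-2* IPs (log2 fold change -6.30, standard error 0.17). On *unc-10*, which encodes the RIM protein of presynaptic release sites, they were at 3.76, 6.17 and 4.00 RPM in *simr-1 mut-2* IPs and 185, 171 and 178 RPM in *mut-2* IPs. On the log2 scale the change was -6.11 for the homeobox gene *ceh-82*, -5.59 for the Notch ligand gene *lag-2*, -5.42 for the neuropeptide receptor gene *npr-11* and -5.42 for *dot-1.5*, a relative of the histone methyltransferase DOT1. All 6 are target genes of wild-type, and in none did the libraries of the strains overlap.

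The largest losses in abundance were in loci with high levels in *mut-2* IPs. Small RNAs on B0250.8 (WBGene00007125, chromosome V, 20469703 to 20470485), the largest loss among protein-coding genes, were at 2528, 2294 and 1619 RPM in the *simr-1 mut-2* IPs and at 8411, 8934 and 8519 RPM in the *mut-2* IPs. Those on *bath-45*, a gene with BTB and MATH domains, were at 272, 541 and 386 RPM in the *simr-1 mut-2* IPs and at 6760, 6647 and 5884 RPM in the *mut-2* IPs. Both sets of libraries were well separated, with log2 fold changes of -2.35 (standard error 0.19) and -4.36 (standard error 0.23). Y53F4B.5, T26E3.7 and W03H9.2 completed the 5 largest losses among protein-coding genes, with log2 fold changes of -3.66, -4.07 and -4.52 from *mut-2* IP levels of 5354 to 7249 RPM. Among pseudogenes, K08B4.5 had 167, 278 and 204 RPM in the *simr-1 mut-2* IPs and 8265, 8144 and 8382 RPM in the *mut-2* IPs.

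**Figure D3:**
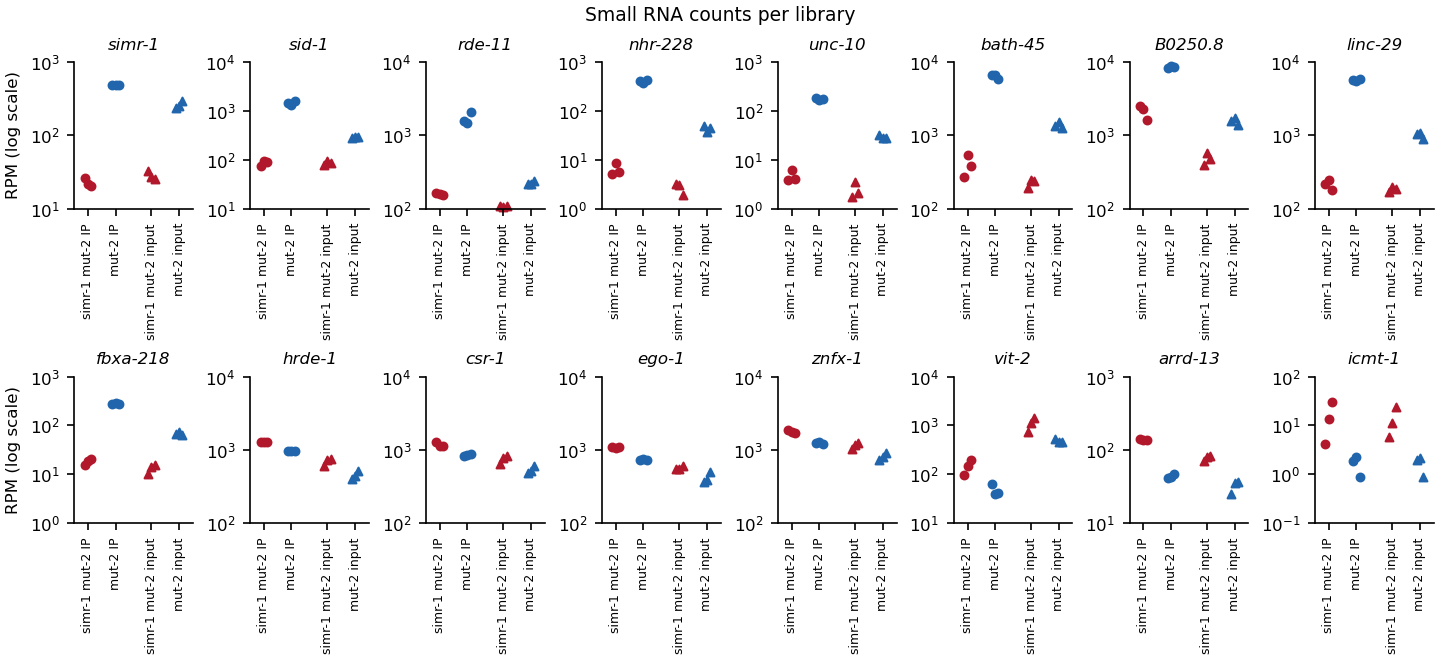
RPM (log scale) of 16 genes in each *simr-1 mut-2* and *mut-2* library, with circles for IPs and triangles for inputs (3 libraries each). *simr-1*, *sid-1*, *rde-11*, *nhr-228*, *unc-10*, *bath-45*, B0250.8, *linc-29* and *fbxa-218* were lower in *simr-1 mut-2* IPs, *hrde-1*, *csr-1*, *ego-1* and *znfx-1* were not called, and *vit-2*, *arrd-13* and *icmt-1* were higher.

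Genes of the RNA interference machinery split into a few that fell and a majority that were not called. *sid-1* encodes the channel that imports double-stranded RNA into cells, and *rde-11* a factor that amplifies the response to it. Small RNAs on *sid-1* (WBGene00004795, chromosome V, 5119939 to 5126916) were at 76.1, 96.2 and 88.6 RPM in the *simr-1 mut-2* IPs and 1448, 1308 and 1597 RPM in the *mut-2* IPs. The libraries did not overlap, and *sid-1* was at -4.41 on the log2 scale (standard error 0.12, edgeR adjusted p = 5.4e-09). Those on *rde-11* were at 161, 158 and 151 RPM in the *simr-1 mut-2* IPs and 1572, 1468 and 2080 RPM in the *mut-2* IPs (log2 fold change -3.80, standard error 0.16). Both also fell in the inputs, with log2 fold changes of -2.02 for *sid-1* and -1.38 for *rde-11*. Among 5 genes with ERGO-1-dependent small RNAs 3 fell, *fbxb-97*, E01G4.5 and F39E9.7, which shares an exon and was close to the 2-fold limit (-1.01).

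The other small RNA pathway genes showed few calls. Of 20 Argonaute genes tested, 2 fell and 2 rose (median 0.27), and these are named after their values were seen. They were *nrde-3*, the nuclear Argonaute of the soma, with 7.67, 6.17 and 5.32 RPM in *simr-1 mut-2* IPs and 13.6, 13.4 and 18.1 RPM in *mut-2* IPs, and *alg-1*, a microRNA Argonaute whose exons overlap another gene, with 5.30, 4.01 and 5.2 RPM against 12.8, 11.7 and 17.2 RPM. The risers were *alg-4*, an Argonaute of spermatogenesis, with 19.03, 16.1 and 29.9 RPM in *simr-1 mut-2* IPs against 8.70, 8.47 and 5.99 RPM in *mut-2* IPs, and *wago-10*, with 14.4, 13.6 and 26.2 RPM against 5.87, 7.74 and 5.36 RPM. Without *simr-1 mut-2* IP replicate 3 their log2 fold changes of 1.14 and 1.16 dropped to 0.87 and 0.83 and were no longer called, and *alg-4* was also not called without *mut-2* IP replicate 3 (0.96). The germline Argonaute genes were among the most abundant in both strains. *wago-4* had 1769, 1672 and 1722 RPM in *simr-1 mut-2* IPs and 1307, 1335 and 1243 RPM in *mut-2* IPs, a log2 fold change of 0.06 (standard error 0.08). *csr-1* (log2 fold change 0.11) and *prg-1*, the piRNA Argonaute with a shared exon (-0.19), were not called either.

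Of 11 Mutator complex genes 0 were called in edgeR's test or with DESeq2 (median 0.09). Among them *mut-7*, a nuclease gene, was at 1038, 1005 and 1005 RPM in *simr-1 mut-2* IPs and 733, 729 and 691 RPM in *mut-2* IPs, and *mut-14*, a helicase gene, had a log2 fold change of 0.09 (standard error 0.10). Among 13 genes of nuclear RNA interference and H3K9 methylation, 1 fell, which was again *nrde-3*, and *nrde-2* (-0.02) and the methyltransferase gene *met-2* (0.23) were not called. Of 7 genes of polymerase complexes 1 fell, *rrf-2* (named after its value was seen), with 4.25, 3.96 and 3.77 RPM in *simr-1 mut-2* IPs against 26.6, 30.9 and 34.7 RPM in *mut-2* IPs, while *ego-1*, the polymerase gene of CSR-1 small RNAs, was not called (0.23, standard error 0.08). Of 19 germ granule genes 1 fell, *simr-1* itself, and the helicase gene *znfx-1* (0.17) and *glh-4* (0.12) were not called. The abundant genes among these had higher RPM in *simr-1 mut-2* and log2 fold changes close to 0, as TMM puts every log2 fold change lower than RPM do by the shift given above.

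Gene families differed in their share of losses, which was 24.3% over all genes. Of 40 BATH and MATH genes tested 19 (47.5%) fell and 0 rose (median -0.91), and their summed level was 2372, 2815 and 2664 RPM in *simr-1 mut-2* IPs against 14720, 14250 and 13860 RPM in *mut-2* IPs. *bath-20* had 91.0, 141.8 and 118 RPM in *simr-1 mut-2* IPs and 4160, 3915 and 4182 RPM in *mut-2* IPs, a log2 fold change of -5.48 (standard error 0.17). *bath-40*, a target gene of *hrde-2*, had 432, 439 and 434 RPM in *simr-1 mut-2* IPs and 300, 306 and 300 RPM in *mut-2* IPs and was not called (0.18). The family therefore held members with deep losses and members without a call. Its near-identical copies could share reads, which makes single values uncertain.

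Of 61 F-box A genes, which encode substrate adaptors of ubiquitin ligases, 30 (49.2%) fell and 1 rose, *fbxa-202* (median -0.89). With any 1 of the *mut-2* IPs left out, 52 to 55 were tested and 23 or 24 fell. With a *simr-1 mut-2* IP left out, 58 to 60 were tested and 28 to 30 fell. Some of the falls were thus in genes that passed the count minimum through the *mut-2* IPs, where they were high. *fbxa-218* was at 15.7, 18.1 and 20.1 RPM in *simr-1 mut-2* IPs and 279, 280 and 273 RPM in *mut-2* IPs, with no overlap (log2 fold change -4.30, standard error 0.08), while the abundant *fbxa-215* and *fbxa-206* were not called (0.09 and 0.10). Of 1117 chemosensory serpentine receptor genes, 31 had enough counts to be tested, of which 24 fell and 1 rose, *sru-20*. *sra-35* was at 1.19, 1.05 and 1.02 RPM in *simr-1 mut-2* IPs and 25.3, 24.3 and 25.9 RPM in *mut-2* IPs. With any 1 of the *mut-2* IPs left out, 16 or 17 receptor genes were tested and 10 or 11 fell, so that many had passed the count minimum only through the *mut-2* IPs, where they were high, and their count of falls is no evidence of a loss in the family. Of 30 C-type lectin genes 7 (23.3%) fell and 4 rose (*clec-73*, *clec-79*, *clec-123* and *clec-151*), and 0 rose without *simr-1 mut-2* IP replicate 3 and 1 without *mut-2* IP replicate 3. Of 72 histone genes 17 fell and 0 rose (median -0.48), a share of 23.6% that is close to that of all genes, led in abundance by the linker histone gene *his-24*, which shares an exon with another gene, with 70.7, 37.7 and 25.7 RPM in *simr-1 mut-2* IPs against 238, 239 and 257 RPM in *mut-2* IPs. The histone count was 29 without *simr-1 mut-2* IP replicate 1.

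Small RNAs on noncoding genes were scarcer in *simr-1 mut-2* IPs. Pseudogenes took a mean of 2.49% of the counts in *simr-1 mut-2* IPs and 9.17% in *mut-2* IPs, and lincRNA genes 0.135% and 1.81%. Of 38 lincRNA genes tested 20 fell and 1 rose, *linc-36* (median -1.05), and of 627 pseudogenes 259 fell and 34 rose (median -0.51). *linc-29* had 218.5, 244 and 179 RPM in *simr-1 mut-2* IPs and 5790, 5581 and 5842 RPM in *mut-2* IPs (log2 fold change -5.09, standard error 0.16). The log2 fold change was -5.18 for *linc-7* and -3.95 for *linc-63*. The 34 pseudogenes that rose were 15 without *simr-1 mut-2* IP replicate 3 and 16, 22 and 20 without *mut-2* IP replicates 1, 2 and 3 in turn. The falls were then 195 of 565, 189 of 560 and 195 of 560 tested pseudogenes for these *mut-2* IP replicates. Without a *simr-1 mut-2* IP they were 249 to 259 of 600 to 606. Some falls were thus in pseudogenes that passed the count minimum through the *mut-2* IPs, where they were high.

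Structural RNA genes also had lower counts. Of 114 snRNA genes 89 fell and 2 rose, the spliced leader genes *sls-2.5* and *sls-2.16* (median -1.58), of 180 snoRNA genes 98 fell and 1 rose, K10D2.10 (median -1.10), and of 333 tRNA genes 168 fell and 0 rose (median -1.03). For tRNA genes the count was 83 with scaling by library size and 103 without *mut-2* IP replicate 1. The input showed 5 of 115 snRNA genes (4.35%) lower, 11 of 174 snoRNA genes (6.32%), and 25 of 518 tRNA genes (4.83%) with 20 (3.86%) higher. Of all genes in the input 6.98% were lower and 3.57% higher, so these kinds did not stand out there. Of 21 rRNA genes 15 fell in the IP (median -1.37) and 16 in the input (median -1.72). F40G12.13, an snRNA gene, had 24.8, 38.8 and 38.8 RPM in *simr-1 mut-2* IPs against 240, 239 and 166 RPM in *mut-2* IPs, while its inputs had 62.2, 91.3 and 98.2 RPM against 68.4, 89.6 and 66.3 RPM. The IP groups were apart and the input groups overlapped. *sls-2.7*, another spliced leader gene, had 263, 146 and 161 RPM in *simr-1 mut-2* IPs against 80.6, 96.0 and 72.9 RPM in *mut-2* IPs. Its log2 fold change of 0.86 was not called, and it passed 2-fold with scaling by library size (1.19) and without *simr-1 mut-2* IP replicate 2 (1.03). Genes of these kinds have near-identical copies, and their reads could be split between them. The mean shares of snRNA, snoRNA and tRNA genes were highest in *mut-2* among the IPs of all strains. The snRNA share was 0.106% in *simr-1 mut-2* and 0.266% in *mut-2* IPs. Wild-type, *simr-1* and *mut-2; hrde-2* IPs had 0.0861, 0.0574 and 0.0641%. Against the same *mut-2* IPs, those of *mut-2; hrde-2* had 91 of 113 snRNA, 114 of 179 snoRNA and 237 of 309 tRNA genes lower. Such falls were thus not particular to loss of *simr-1*.

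Lists of genes expressed in the germ line or in all cells held few calls, although their RPM were higher in *simr-1 mut-2*. Of 33 proteasome, 11 eIF3, 17 synaptonemal complex and 23 germline RNA-binding genes, 0 were called in edgeR's test (medians 0.30, 0.36, 0.09 and 0.19), and DESeq2 also called 0 in each list. Of 76 cytosolic ribosomal protein genes 1 fell, *rpl-42* (named after its value was seen), with 2.23, 3.32 and 4.78 RPM in *simr-1 mut-2* IPs and 8.99, 10.0 and 7.95 RPM in *mut-2* IPs. The proteasome gene *rpn-1* had 1072, 1060 and 1089 RPM in *simr-1 mut-2* IPs and 656, 659 and 707 RPM in *mut-2* IPs, and its change of 0.32 on the log2 scale (standard error 0.08) stayed under 2-fold. For the translation factor gene *eif-3.C* the log2 fold change was 0.40, for *fbf-2*, a regulator of germline stem cells, -0.01, and for *htp-3*, a component of the meiotic axis, 0.22. With scaling by library size, the medians of the same lists were 0.64, 0.71, 0.44 and 0.54, with 1 higher gene among the RNA-binding regulators and 0 calls in the other lists.

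**Figure D4:**
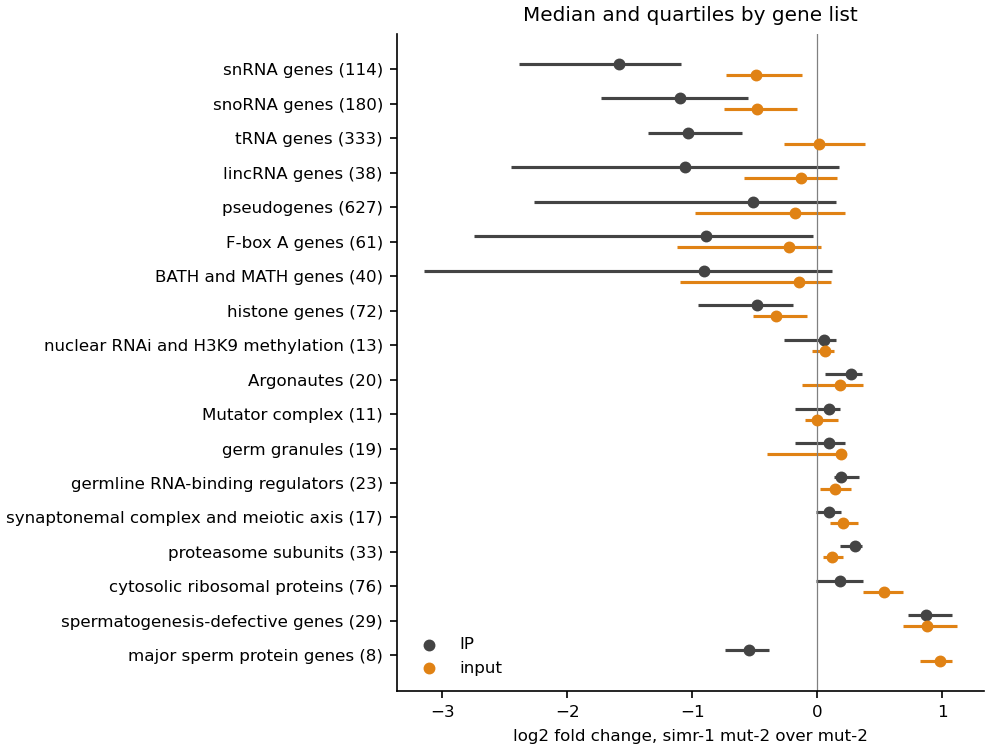
Median (points) and quartiles (lines) of the log2 fold change, *simr-1 mut-2* over *mut-2*, for gene lists in IP and input, with the number of genes tested in the IP in brackets. The snRNA list had an IP median of -1.58 and the proteasome list one of 0.30.

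Chromosome X held the highest share of lower genes among the chromosomes. Of 1348 genes tested on X, 632 (46.9%) were lower and 5 higher, with a median log2 fold change of -0.93. Over all genes 24.3% were lower. On chromosome I 373 of 2280 were lower, and on chromosome V 548 of 1943. Among target genes of wild-type 320 of 440 on X were lower and 1129 of 1795 on the other chromosomes. Among genes outside this class the counts were 312 of 908 on X and 1156 of 8873 elsewhere, with medians of -0.62 and 0.14. In the input 188 of 1382 genes on X were lower and 17 higher (median -0.45).

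The called gains were small and mostly concerned genes of low abundance, as 165 of the 604 higher genes reached 10 RPM. The 6 largest rises were in *icmt-1*, T27A3.5, Y105E8A.27, Y46G5A.22, F37A4.5 and T06C10.3, none of them a target gene. *icmt-1*, which encodes a methyltransferase for prenylated proteins, had 4.04, 13.7 and 30.4 RPM in the *simr-1 mut-2* IPs and 1.81, 2.20 and 0.883 RPM in the *mut-2* IPs. The *simr-1 mut-2* libraries spread widely, with replicate 3 highest, and the log2 fold change was 2.95 (standard error 0.65). Its inputs had 5.64, 10.98 and 23.1 RPM in *simr-1 mut-2* and 1.97, 2.13 and 0.860 RPM in *mut-2*. Y105E8A.27 was steadier, with 8.29, 8.55 and 13.4 RPM in *simr-1 mut-2* IPs against 1.89, 2.20 and 2.46 RPM in *mut-2* IPs (log2 fold change 1.84, standard error 0.26).

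The largest rises among genes with a three-letter name were in *kel-10*, *hdl-1*, *pck-3*, *inx-8*, *kin-21* and *acs-10*, with log2 fold changes between 1.41 and 1.63. *inx-8*, an innexin of gap junctions in the somatic gonad, had 9.62, 10.9 and 13.8 RPM in *simr-1 mut-2* IPs against 3.26, 2.85 and 3.60 RPM in *mut-2* IPs. Its input change was 0.36 on the log2 scale and not called. By abundance the largest gains were R03D7.2, *acs-13*, *ola-1*, *vit-2* and *arrd-13*. *arrd-13*, a gene with an arrestin domain and a target in *hrde-2*, had 141.6, 134 and 135 RPM in *simr-1 mut-2* IPs and 41.4, 42.4 and 46.5 RPM in *mut-2* IPs, tight groups with a log2 fold change of 1.31 (standard error 0.09). The rises of R03D7.2, *acs-13* and *ola-1* were each 1.06 on the log2 scale and did not all last when a library was left out. R03D7.2 was at 0.82 without *simr-1 mut-2* IP replicate 1, *acs-13* at 0.94 and 0.95 without *simr-1 mut-2* IP replicates 2 and 3 and at 0.98 without *mut-2* IP replicate 1, and *ola-1* at 0.997 and 0.96 without *simr-1 mut-2* IP replicates 2 and 3.

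Genes of spermatogenesis and yolk proteins were among the risers. Of 29 *spe* and *fer* genes tested 9 rose and 0 fell (median 0.87), where 5.03% of all genes rose. Their summed level was 457, 497 and 631 RPM in *simr-1 mut-2* IPs and 329, 333 and 311 RPM in *mut-2* IPs, and 379, 431 and 482 RPM against 298, 308 and 279 RPM in the inputs. The count was 3 without *simr-1 mut-2* IP replicate 3, 5 without *mut-2* IP replicate 3, 6 without *mut-2* IP replicate 1, 22 with scaling by library size, and 8 of 25 in the input, where 3.57% of all genes rose. *spe-4*, a presenilin of sperm organelles (named after its value was seen), had 12.97, 12.4 and 20.3 RPM in *simr-1 mut-2* IPs against 3.70, 6.03 and 5.17 RPM in *mut-2* IPs (log2 fold change 1.26, standard error 0.25). *fer-1*, needed for membrane fusion in sperm, had 39.1, 38.9 and 61.9 RPM against 18.8, 17.6 and 15.4 RPM (1.08, and 0.86 without *simr-1 mut-2* IP replicate 3 and 0.98 without *mut-2* IP replicate 3), and shares an exon with another gene. The *spe-4* and *fer-1* libraries of the strains did not overlap.

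Major sperm protein genes had few counts in the IPs. Their sum was 13.4, 10.5 and 15.3 RPM in *simr-1 mut-2* IPs and 13.6, 15.7 and 12.4 RPM in *mut-2* IPs, with overlap. In the inputs it was 246, 220 and 266 RPM for *simr-1 mut-2*, above the 101, 124 and 84.5 RPM of *mut-2*. In the input 10 of 30 rose, and in the IP 1 of 8 tested, *msp-142*, at the limit (adjusted p = 0.05) and lost under 10 alternatives. The part of sperm abundance in these rises was not tested.

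Of 10 genes of somatic tissues 2 rose, the yolk protein genes *vit-2* and *vit-1*. *vit-2* (WBGene00006926, chromosome X, 5101032 to 5106173) had 94.9, 148 and 197 RPM in *simr-1 mut-2* IPs and 61.7, 39.1 and 41.6 RPM in *mut-2* IPs (log2 fold change 1.27, standard error 0.24), with 728, 1134 and 1420 RPM against 529, 457 and 451 RPM in the inputs. It was more abundant in the inputs than in the IPs of both strains. *vit-1* rose by 1.06, and by 0.78 without *mut-2* IP replicate 2, which is below 2-fold. *vit-6*, with a shared exon, was not called (0.12), and *vit-5* had 56.4, 8.15 and 6.58 RPM in *simr-1 mut-2* IPs against 30.96, 15.9 and 34.1 RPM in *mut-2* IPs. Without *simr-1 mut-2* IP replicate 1, *vit-5* was called lower (-2.25), as 1 of 3 lower genes of the list. The vitellogenin genes have near-identical copies that could share reads. The summed level of somatic genes was 466, 332 and 429 RPM in *simr-1 mut-2* IPs and 311, 168 and 260 RPM in *mut-2* IPs, and that of collagen genes, with 4 of 43 higher and 2 lower, was 222, 151 and 158 RPM against 118.9, 103 and 147 RPM. With scaling by library size 10 collagen genes were higher, and without *mut-2* IP replicate 1 or 2 the count was 0. The part of a carry-over from the lysate in these values was not tested.

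The inputs moved less than the IPs. Of 11441 genes tested in the input, 799 (6.98%) were lower and 408 (3.57%) higher in *simr-1 mut-2*. Of the 2917 genes lower in the IP, 2086 were tested in the input and 714 were lower there, which is 24.5% of the genes lower in the IP and 89.4% of those lower in the input. Of the 604 genes higher in the IP, 198 were higher in the input, or 32.8% and 48.5% of each list. The genes lower in the IP had a median input change of -0.83, and those higher in the IP one of 1.05. IP and input come from the same lysates, so these overlaps are not between independent animals. Target genes of wild-type had 508 lower and 15 higher of 1685 in the input (median -0.69).

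The difference between IP and input was tested directly as an interaction over 12 libraries. Of 13174 genes 1420 (10.8%) fell more in the IP than in the input and 14 (0.106%) rose more. Blocking on the lysate, which IP and input of one replicate share, gave 1622 and 34. With 1 replicate number left out the lower count was 861, 473 and 666, and the higher count was 102, 1 and 15, for replicates 1, 2 and 3 in that order. Of the 1420 genes, 711 were target genes of wild-type, out of 2255 tested (median -1.01), and 5 were target genes of *hrde-2*, out of 3401 (median 0.06). *sid-1* had an interaction of -2.46 (standard error 0.16, edgeR adjusted p = 2.9e-07) and *rde-11* one of -2.49 (standard error 0.21), so both fell more in the IP. For B0250.8 it was -0.40 (edgeR adjusted p = 0.30), as IP and input changed by -2.35 and -2.02. Of 116 snRNA genes 61 fell more in the IP and 1 rose more, and F40G12.13 had an interaction of -2.93 (standard error 0.24). For the *spe* and *fer* genes and the somatic genes the count was 0 in both directions with edgeR (medians -0.06 and 0.20).

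**Figure D5:**
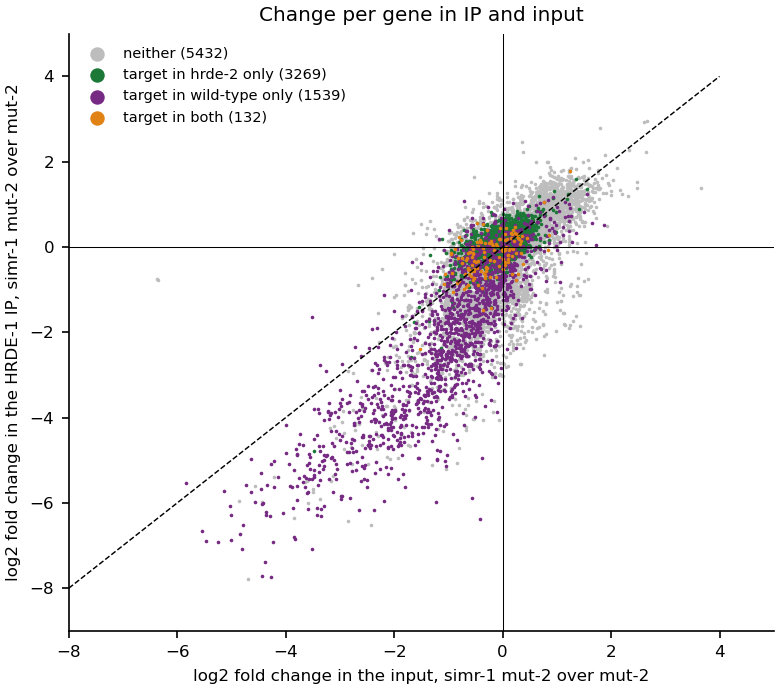
Log2 fold change, *simr-1 mut-2* over *mut-2*, in the IP (vertical axis) and in the input (horizontal axis) for 10372 genes tested in both, coloured by target class, with a dashed line of equal change. The 1539 genes that are targets in wild-type only lie mostly below the dashed line, and the 3269 that are targets in *hrde-2* only lie around 0.

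Loss of *simr-1* was set beside loss of *hrde-2* by comparing the IPs of *simr-1 mut-2* with those of *mut-2; hrde-2*, which share no library. Target genes of wild-type took 5.62, 5.87 and 5.47% of the *simr-1 mut-2* IPs and 4.85, 4.88 and 4.78% of the *mut-2; hrde-2* IPs. Of 10984 genes 1495 (13.6%) were higher and 136 (1.24%) lower in *simr-1 mut-2*. Of target genes of wild-type 241 of 1816 (13.3%) were higher, close to the share of all genes, and 47 (2.59%) lower. Of target genes of *hrde-2* 2 of 3401 (0.0588%) were higher and 44 (1.29%) lower, the latter close to the share of all genes. The highest share of higher genes was in neither class, with 1252 of 5899 (21.2%) higher and 52 lower. Without replicates 2 and 3 in turn the higher count was 452 and 840, and without replicates 1, 2 and 3 in turn the lower count was 341, 27 and 79. As in the main comparison, the *mut-2* alleles differ.

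A few abundant loci were far higher in *simr-1 mut-2* than in *mut-2; hrde-2*. Small RNAs on the pseudogene Y71G12B.28 were at 1717, 2084 and 1593 RPM in *simr-1 mut-2* IPs and at 83.6, 74.8 and 72.4 RPM in *mut-2; hrde-2* IPs, a log2 fold change of 4.46 (adjusted p = 8.3e-08), and the *mut-2* IPs had 5338, 5332 and 5288 RPM. B0250.8 had 180, 208 and 169 RPM in *mut-2; hrde-2* IPs, and the log2 fold change of *simr-1 mut-2* over it was 3.45. Y39E4B.14, which shares an exon with another gene, followed with 3.03 and Y53F4B.5 with 3.23. For T26E3.7, *bath-45*, *linc-63* and W03H9.2 the values were 2.34, 2.40, 2.23 and 2.02. These loci were thus between the *mut-2* and the *mut-2; hrde-2* level in *simr-1 mut-2*. Other deep losses had similar low levels in both double mutants, such as K08E7.10 with 31.2, 32.3 and 27.9 RPM in *simr-1 mut-2* IPs and 30.98, 24.9 and 17.9 RPM in *mut-2; hrde-2* IPs (log2 fold change 0.23, adjusted p = 0.39), and *rde-11* (-0.02, adjusted p = 0.83). Of the *spe* and *fer* genes 17 of 29 were higher in *simr-1 mut-2* than in *mut-2; hrde-2* (median 1.41).

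The effect of *simr-1* in the *mut-2* background was compared with its effect in otherwise wild-type animals, as the difference of the differences over 12 IPs. Of 15012 genes 4931 (32.8%) had a lower effect in the *mut-2* background and 1640 (10.9%) a higher one. The median over all genes was -0.59 and not 0, and DESeq2 moved it by 0.412 and gave 2806 lower and 2387 higher genes, so that lower genes made up 75.04% of the calls in edgeR and 54.03% in DESeq2. In simulated libraries with no interaction, the unchanged genes had a median of -0.446 and 237 false calls were made. There the *simr-1 mut-2* means were set per gene from those of *mut-2*, *simr-1* and wild-type, which kept their own means. The set means were not held to a library total. Their composition therefore differs from that of the data, and the simulation does not calibrate the observed median. The counts in this comparison depend on the scaling. Of the 3269 genes that are targets in *hrde-2* only, 2411 had a lower effect (median -1.33). Their median change was 0.20 for *simr-1 mut-2* over *mut-2* IPs and 1.59 for *simr-1* over wild-type IPs. The starting shares differ, as these genes took a mean of 10.5% of wild-type IPs and 34.7% of *simr-1* IPs. They took 53.15% of *mut-2* IPs and 76.3% of *simr-1 mut-2* IPs. From 53.15% their share could not rise 2-fold, so a smaller log2 effect does not mean a smaller gain in share. The interaction of *sid-1* was larger in size than the median of -0.59 over all genes, at -4.43 (standard error 0.18, edgeR adjusted p = 5.4e-10). Its change was -4.41 in the *mut-2* background and 0.06 for *simr-1* over wild-type.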

How the data were processed

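Small RNAs of 18 to 30 nt from whole 1-day-old adults were treated with a polyphosphatase and sequenced, from lysates (inputs) and from HRDE-1 immunoprecipitated through FLAG. Per the labels and the methods of the study, the authors trimmed and filtered reads with Cutadapt 3.4 and the FASTX-Toolkit, aligned them with Bowtie2 2.5.0 to the WS258 genome and counted them on gene exons with featureCounts of Subread 2.0.1. The deposited values are expected counts, since a read shared by several genes was split by the authors (10.4% of non-zero values are not whole, and 26.6% of 31106 features share an exon with another). Genes without a name are called by their transcript identifier.

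Expected counts were rounded and tested with edgeR 4.0.16 (quasi-likelihood, TMM) in R 4.3.3, after a filter of 10 counts in 3 libraries. A call needed 2-fold and a Benjamini-Hochberg adjusted p of at most 0.05. The IP comparison used the 6 IPs, the interaction of IP with input and that with *simr-1* alone used 12 libraries each. Class shares were tested by exact permutation, and tables were made with pandas 2.3.3, scipy 1.17.1 and matplotlib 3.10.9. The members and lists were chosen with earlier results of these data known. Genes named in the text were the 6 largest falls and rises at 10 RPM or more that share no exon and whose libraries do not overlap, the same among genes with a three-letter name, the 5 largest losses and gains of RPM among protein-coding genes, *simr-1*, *mut-2*, *hrde-1* and *hrde-2*, and up to 4 of the most abundant genes of each list. Others, among them the genes called in lists with few calls, *spe-4* and the loci compared with *mut-2; hrde-2*, were named after their values were seen. The 2 genotypes are not paired by replicate number (correlations of deviations between same-numbered IPs were -0.144, 0.075 and -0.333). IP and input of a replicate come from 1 lysate, with correlations of 0.534, 0.503 and 0.484 in *simr-1 mut-2* and 0.053, 0.292 and 0.233 in *mut-2*. On simulated counts with 200 genes changed 4-fold, 195 were recovered with 5 false calls in the IP comparison (11771 genes), 163 with 6 in that of IP with input (12895 genes), and 196 with 4 in that with *mut-2; hrde-2* (10770 genes). In these runs a gene had the same mean in all groups. With the groups' own means, except for *simr-1 mut-2* IP means set to give no interaction, 153 were recovered with 8 false calls for IP with input (12903 genes). The unchanged genes then had a median of 0.093. Alternatives were DESeq2 1.42.0, scaling by library size, no count filter, a replicate block, all 18 IPs in the fit, other feature sets, an adjusted p of 0.01 and leaving out single libraries.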

Additional observations from a re-analysis of the deposited data

Results flagged for a closer look

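The effect of *simr-1* differed between the *mut-2* background and otherwise wild-type animals by the edgeR test of the difference itself for 4931 genes with a lower effect and 1640 with a higher effect in the *mut-2* background (of 15012 tested), counts that depend on the scaling of the libraries. Of the genes chosen for naming, 6 were called in the IP comparison, had the opposite sign for *simr-1* over wild-type and passed the test of the difference in edgeR, in DESeq2 and with scaling by library size. Each value below is the log2 fold change of *simr-1 mut-2* over *mut-2* less that of *simr-1* over wild-type. For *sid-1* it was -4.43 (-4.41 in the *mut-2* background and 0.06 without it). For the snoRNA gene T08B6.64 it was -2.15 (-2.13 and 0.05). Y105E8A.27 had 3.29 (1.84 and -1.41), a change of direction between the backgrounds, and R03D7.2 had 1.68 (1.06 and -0.59), where the first value dropped to 0.82 without *simr-1 mut-2* IP replicate 1. *inx-8* had 1.74 (1.46 and -0.24) and *wago-10* had 1.24 (1.16 and -0.04, with 0.83 for the first without *simr-1 mut-2* IP replicate 3). For *simr-1* over wild-type, *sid-1*, T08B6.64, *inx-8* and *wago-10* had no clear sign (edgeR adjusted p = 0.66, 0.755, 0.667 and 0.915). The adjusted p was 0.0051 for Y105E8A.27 and 0.022 for R03D7.2. Levels in *simr-1* and wild-type IPs were low for Y105E8A.27 (2.01 and 4.23 RPM), *inx-8* (2.04 and 1.91 RPM) and *wago-10* (3.19 and 2.58 RPM). The groups of 3 libraries are too small for a test of single outlying libraries.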

How the results depend on the processing

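In the IP comparison the counts of 2917 lower and 604 higher genes became 1233 higher with scaling by library size and 365 higher at an adjusted p of at most 0.01, and leaving out 1 library gave 2185 to 3019 lower and 262 to 760 higher genes. For IP over input the 14 higher genes became 40 with DESeq2, 32 with library size, 159 without a count filter and 34 with the replicate block, and leaving out 1 replicate number gave 473 to 861 lower and 1 to 102 higher genes. For the effect of *simr-1* with and without *mut-2*, DESeq2 gave 2806 lower genes, and leaving out 1 replicate number gave 3977 to 4418 lower and 1112 to 1419 higher genes. Against *mut-2; hrde-2* the same gave 27 to 341 lower and 452 to 1367 higher genes. With the replicate block the IP comparison had 2907 lower and 550 higher genes, IP over input 1622 and 34, the effect of *simr-1* with and without *mut-2* 4904 and 1531, and the comparison with *mut-2; hrde-2* 150 and 1378. With 1 library left out, the differences in class share ranged between -15.6 and -15.3 percentage points for target genes of wild-type and between 22.5 and 23.6 for those of *hrde-2*. They were -2.42 and 6.81 for targets defined at 4-fold and -12.8 and 17.7 without genes that share an exon. Mutator-dependent genes were those at least 2-fold lower in *mut-2* than in wild-type inputs, and Mutator-independent genes those with little or no fall there. In place of target genes of wild-type and of *hrde-2*, they gave -21.9 and 22.7. They were defined with inputs of the *mut-2* lysates compared here, so they are not independent of the comparison. Of Mutator-independent genes 331 of 4850 were lower in the IP, against 17 of 3401 target genes of *hrde-2*. The rRNA share differed by -0.130 percentage points, and by 0.0611 without *mut-2* IP replicate 1 and -0.249 without *mut-2* IP replicate 2. The cause was not tested for any of these changes beyond the scaling and the smaller number of libraries that the settings themselves set. Of 116 named genes tested in the IP, 98 kept their direction and call under each alternative in which they were tested. Some were not tested in each, with 105 tested when genes that share an exon were left out and 103 among protein-coding genes and pseudogenes. Depth limits genes under about 10 counts a library, which were not tested, and 3 libraries a group limit the class shares to an exact p of 0.1.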
